A study of Mus musculus with 18 samples.

Results

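The comparison described here set monocyte-derived against haematopoietic stem cell (HSC)-derived microglia from bone marrow chimaeras of one design. It rests on 8 of the 18 described libraries, 4 of each origin, and it covers all genes. The libraries were chosen by their labels alone, not by any measured value. The recipients were wild-type C57BL6 mice that were lethally irradiated and given marrow carrying Ms4a3-Cre, R26-TdTomato and Cx3cr1-gfp, and the brain was taken 32 weeks later. Cells with both GFP and TdTomato were labelled monocyte-derived, and cells with GFP but no TdTomato were labelled HSC-derived. Colourless host microglia (4 libraries), and leptomeningeal macrophages of monocyte-derived (4) and HSC-derived (2) origin, served as levels to compare with. Every donor-derived cell in these groups carries all 3 alleles, and every mouse, the source of the host microglia included, was irradiated. Nothing in the labels ties a replicate to a mouse of its own, so each p-value measures the spread between these samples, which may be technical.

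Ms4a3 is a gene of granulocyte and monocyte progenitors, so Ms4a3-Cre switches on TdTomato for good in those progenitors and in all cells that descend from them. The HSC-derived label is therefore set by the absence of TdTomato, and a monocyte in which recombination failed would carry it too. Because GFP reports Cx3cr1, both donor-derived groups were also selected for expression of that receptor gene. The share of missed recombination was not tested.

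Microglia are the macrophages of the brain parenchyma, and they normally arise before birth and renew themselves locally. After irradiation and marrow transplantation, marrow-derived macrophages can take up residence in the parenchyma, where they acquire many but not all microglial genes. MHC class II molecules display peptides from engulfed proteins to CD4+ T cells. Resting microglia make little of them, whereas many macrophages at the borders of the brain make much. H2-Aa and H2-Ab1 encode the alpha and beta chains of one such molecule (I-A), and H2-Eb1 encodes a beta chain of another (I-E). Cd74 encodes the invariant chain that escorts them, and Ciita encodes the co-activator that drives their transcription together.

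The MHC class II genes carry short promoter elements, among them the Y box, which binds the factor NF-Y. The stretches shown come from class II genes chosen because the 250 bases before the start held the Y box. Its presence in each of them was therefore fixed by the choice. Stretches that overlapped the annotated gene at length were left out. Of the genes shown, H2-Eb1 and H2-Aa differed between both origins and H2-Ob did not pass the test. Each stretch holds the 100 bases before the RefSeq start site on the gene's own strand (GRCm38.p6), in lower case with the Y box TGATTGG in capitals. The H2-Eb1 stretch lies at chr17:34305767-34305866 (plus strand), that of H2-Aa at chr17:34287824-34287923 (minus strand) and that of H2-Ob at chr17:34238805-34238904 (plus strand).
H2-Eb1: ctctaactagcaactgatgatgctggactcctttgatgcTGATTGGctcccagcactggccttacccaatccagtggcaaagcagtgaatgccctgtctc
H2-Aa: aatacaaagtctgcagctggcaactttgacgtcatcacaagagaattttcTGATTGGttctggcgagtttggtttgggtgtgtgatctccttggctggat
H2-Ob: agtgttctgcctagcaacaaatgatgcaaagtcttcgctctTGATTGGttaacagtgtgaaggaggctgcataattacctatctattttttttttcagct
The Y box lay 61 to 55 bases before the start of H2-Eb1, 50 to 44 before that of H2-Aa and 59 to 53 before that of H2-Ob. Searched on both strands in the 250 bases before the start, TGATTGG was found in 6 of the 7 class II genes with a promoter sequence at hand, against 7.23% of all 32851 promoter windows of that length. It was found in 0 of the 4 other genes with a sequence that passed the test in both fits described next (Ccr2, F13a1, Plbd1 and Clec4b1). A match is a description of the letters only. The motif was present both in class II genes that differed between the origins and in class II genes that did not pass.

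HSC-derived replicates 3 and 4 stood apart from all other libraries of the comparison. They held 264795 and 317872 UMIs (unique molecular identifiers, each counting 1 captured transcript), against 691691 and 692884 in HSC-derived replicates 1 and 2 and 1072911 to 1507199 in the monocyte-derived libraries. Ribosomal protein transcripts made up 14.2% and 13.4% of the shallow pair, 8.7% and 8.91% of the deeper HSC-derived pair and 6.54% to 7.28% of the monocyte-derived libraries. A count of 3 corresponded to 15.4 and 11.7 CPM in the shallow pair, and to 1.73 to 4.25 CPM in the other 6 libraries, where CPM is the TMM-scaled UMI count per 1e+06 UMIs. Nhlh2, a neuronal transcription factor gene, took 1.08% and 1.42% of UMIs in the shallow pair and had 0 counts in the monocyte-derived libraries. The genes that the results turn on are therefore given from the fit of all 18 libraries and from the fit without these 2; where 1 adjusted p stands alone, it is from all 18. No label gives a batch, so library quality and origin cannot be told apart for genes that rest on the shallow pair.

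**Figure D1:**
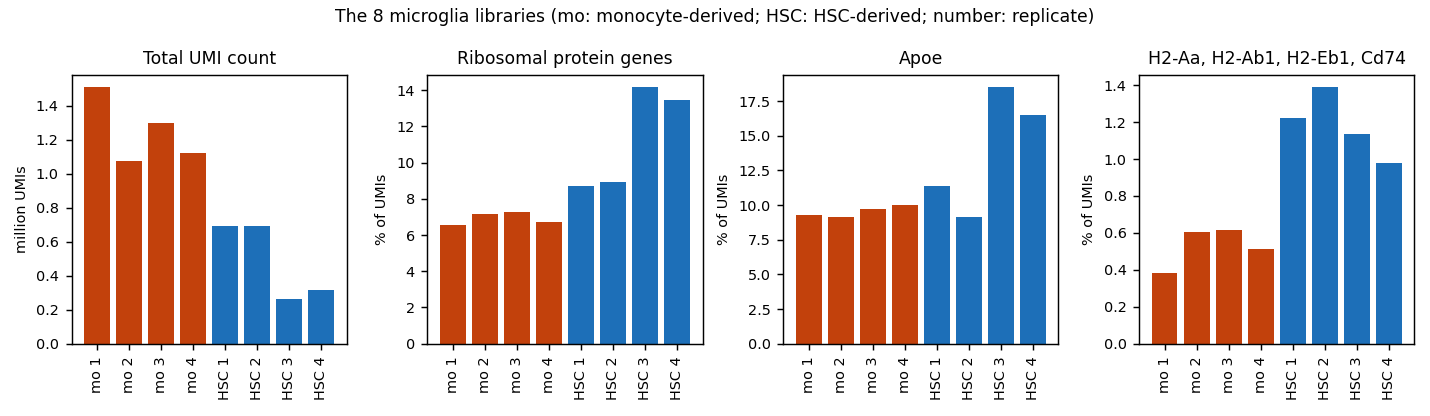
Bars give, for each of the 4 monocyte-derived (mo) and 4 HSC-derived (HSC) microglia libraries, the total UMI count and the percentage of UMIs from ribosomal protein genes, from Apoe and from H2-Aa, H2-Ab1, H2-Eb1 and Cd74 together. The ribosomal and Apoe shares were highest in HSC-derived replicates 3 and 4, whereas the MHC class II share was between 0.978% and 1.39% in all 4 HSC-derived libraries and between 0.381% and 0.617% in all 4 monocyte-derived ones.

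HSC-derived microglia had higher levels of 4 MHC class II pathway genes (H2-Eb1, H2-Aa, H2-Ab1 and Cd74) and of Ccr2, F13a1, Plbd1 and Clec4b1 than monocyte-derived microglia, by 1.74-fold to 3.4-fold. These 8 genes were the ones that passed the edgeR quasi-likelihood test (Benjamini-Hochberg adjusted p under 0.05 over all genes tested) both with all libraries and without the shallow pair, and all 8 were higher in the HSC-derived cells. With all 18 libraries, 200 of 10597 genes passed (1.89%), of which 187 were higher in HSC-derived (1.76%) and 13 in monocyte-derived microglia (0.123%). Without the shallow pair, 10 of 10428 passed (0.0959%), of which 9 were higher in HSC-derived (0.0863%) and 1 in monocyte-derived microglia (0.00959%). The 8 genes shared by both fits were 0.0755% of the genes tested. In each of the 8, the 4 HSC-derived libraries lay above the 4 monocyte-derived ones, a separation in that direction which 5.58% of all genes tested showed (10.6% in either direction, and 23.2% when the deeper pair alone stood for the HSC-derived cells). In bulk samples of this kind, fewer cells of a type and less RNA per cell cannot be told apart.

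Among the peptide-binding chains, H2-Eb1 (chromosome 17, 34305867 to 34316674) had 536, 828, 930.4 and 799 CPM in monocyte-derived replicates 1 to 4 and 2043, 2299, 2889.8 and 2199.5 CPM in HSC-derived replicates 1 to 4. The lowest HSC-derived library thus lay above the highest monocyte-derived one, and neither the shallow nor the deeper pair set the difference alone. The means were 773 ± 168 and 2358 ± 369.9 CPM (SD, n = 4 each), a 3.04-fold difference (log2 1.61 ± 0.20 SE, edgeR adjusted p = 2.32e-05). Without the shallow pair the difference was 2.77-fold (log2 1.47 ± 0.18, edgeR adjusted p = 2.1e-05).

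H2-Aa (chromosome 17, 34282744 to 34287823) had 928, 1527, 1637 and 1322 CPM in the monocyte-derived and 3473, 3869.9, 4524 and 3483 CPM in the HSC-derived libraries. It was 2.83-fold higher in HSC-derived cells (edgeR adjusted p = 0.000141) and 2.68-fold higher without the shallow pair (adjusted p = 0.0249). H2-Ab1 (chromosome 17, 34257689 to 34269419), whose product pairs with that of H2-Aa, had 970.1, 1632, 1645 and 1257 CPM against 3541, 3852, 4324 and 3589 CPM. Its difference was 2.78-fold with all libraries (edgeR adjusted p = 7.16e-05) and 2.65-fold without the shallow pair (adjusted p = 0.00106). Both chains of I-A were thus higher by about the same factor.

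Cd74, the invariant chain gene, had 873, 1371, 1410.4 and 1223 CPM in the monocyte-derived and 2930.2, 3195, 3694 and 2892 CPM in the HSC-derived libraries. The groups did not overlap, and the difference was 2.61-fold (edgeR adjusted p = 5.55e-05), or 2.48-fold without the shallow pair (adjusted p = 2.1e-05). Monocyte-derived replicate 1 had the lowest level of its group for all 8 genes, these 4 included.

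Ciita, the co-activator gene, had 13.3, 21.5, 23.1 and 13.6 CPM in monocyte-derived and 49.6, 48.1, 35.9 and 31.3 CPM in HSC-derived libraries. The groups did not overlap and the estimate was 2.49-fold, yet the test was not passed with all libraries (edgeR adjusted p = 0.0534) or without the shallow pair (adjusted p = 0.363). Over 24 alternative settings the adjusted p of Ciita ran from 6.62e-05 to 0.405, and 8 of them put it past the threshold. H2-DMb1, which encodes a chain of the peptide-loading molecule H2-DM, had 156 to 204 CPM against 239 to 278 CPM without overlap, and an adjusted p of 0.0586 by edgeR. H2-DMa, the partner chain, had 799 ± 60.9 and 989.6 ± 141 CPM (SD, n = 4 each) and an edgeR adjusted p of 0.419.

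Of the 15 tested members of the MHC class II antigen presentation list, 4 were higher in HSC-derived cells in both fits and 0 were lower. The list's median was 0.46 on the log2 scale (HSC-derived minus monocyte-derived), beside -0.02 over all genes tested, and 0.33 beside -0.01 without the shallow pair. The members that did not pass were Ciita, H2-DMa, H2-DMb1, H2-DMb2, H2-Oa, H2-Ob, the factors of the RFX complex Rfx5, Rfxap and Rfxank, the protease gene Ctss and the reductase gene Ifi30. H2-Ob, an H2-DO chain that restrains H2-DM, had 58.3 to 66.2 CPM in monocyte-derived and 47 to 74.2 CPM in HSC-derived libraries, which overlapped.

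Ccr2 (chromosome 9, 124101950 to 124113557) encodes the chemokine receptor that brings classical monocytes out of the marrow and into tissue. Its levels were 38, 52.1, 48.3 and 53.5 CPM in the monocyte-derived and 113, 118, 118 and 86.1 CPM in the HSC-derived libraries. HSC-derived cells were 2.31-fold higher (log2 1.21 ± 0.19 SE, edgeR adjusted p = 0.000517), and 2.4-fold higher without the shallow pair (adjusted p = 0.000774). The higher group was thus the one labelled as not monocyte-derived.

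F13a1 (chromosome 13, 36867178 to 37050244) encodes the A subunit of coagulation factor XIII, a gene of monocytes and border macrophages. It had 39.2, 51.3, 39.9 and 52.7 CPM against 93.5, 93.4, 92.2 and 137 CPM in HSC-derived libraries. The difference was 2.24-fold (edgeR adjusted p = 0.00162) and 2.03-fold without the shallow pair (adjusted p = 0.0218). Ly6c2, the gene of a surface antigen of classical monocytes, had 11 to 21.7 CPM in monocyte-derived and 2.83 to 13.7 CPM in HSC-derived libraries, lower on average but overlapping (edgeR adjusted p = 0.195). Of the 18 tested genes of the classical monocyte list, 2 (Ccr2 and F13a1) were higher in HSC-derived cells in both fits and 0 were lower, with a list median of -0.10 on the log2 scale beside -0.02 over all genes.

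Clec4b1 (chromosome 6, 123049962 to 123071555), a C-type lectin receptor gene, was low in all 8 libraries, at 5.19, 7.45, 9.81 and 9.58 CPM in monocyte-derived and 25.5, 30.2, 30.7 and 19.6 CPM in HSC-derived cells. HSC-derived cells were 3.4-fold higher (edgeR adjusted p = 0.00239) and 3.48-fold higher without the shallow pair (adjusted p = 0.0163). Its levels rest on 5 to 22 counts per library. Plbd1 (chromosome 6, 136612070 to 136661928), a phospholipase B domain gene, had 58.2, 63.7, 72.9 and 67 CPM against 112, 129, 82 and 117 CPM. Its 1.74-fold difference (edgeR adjusted p = 0.0133) was 1.82-fold without the shallow pair (adjusted p = 0.0304). The call of Plbd1 was lost when monocyte-derived replicate 1 or HSC-derived replicate 4 was left out of the fit of all libraries.

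**Figure D2:**
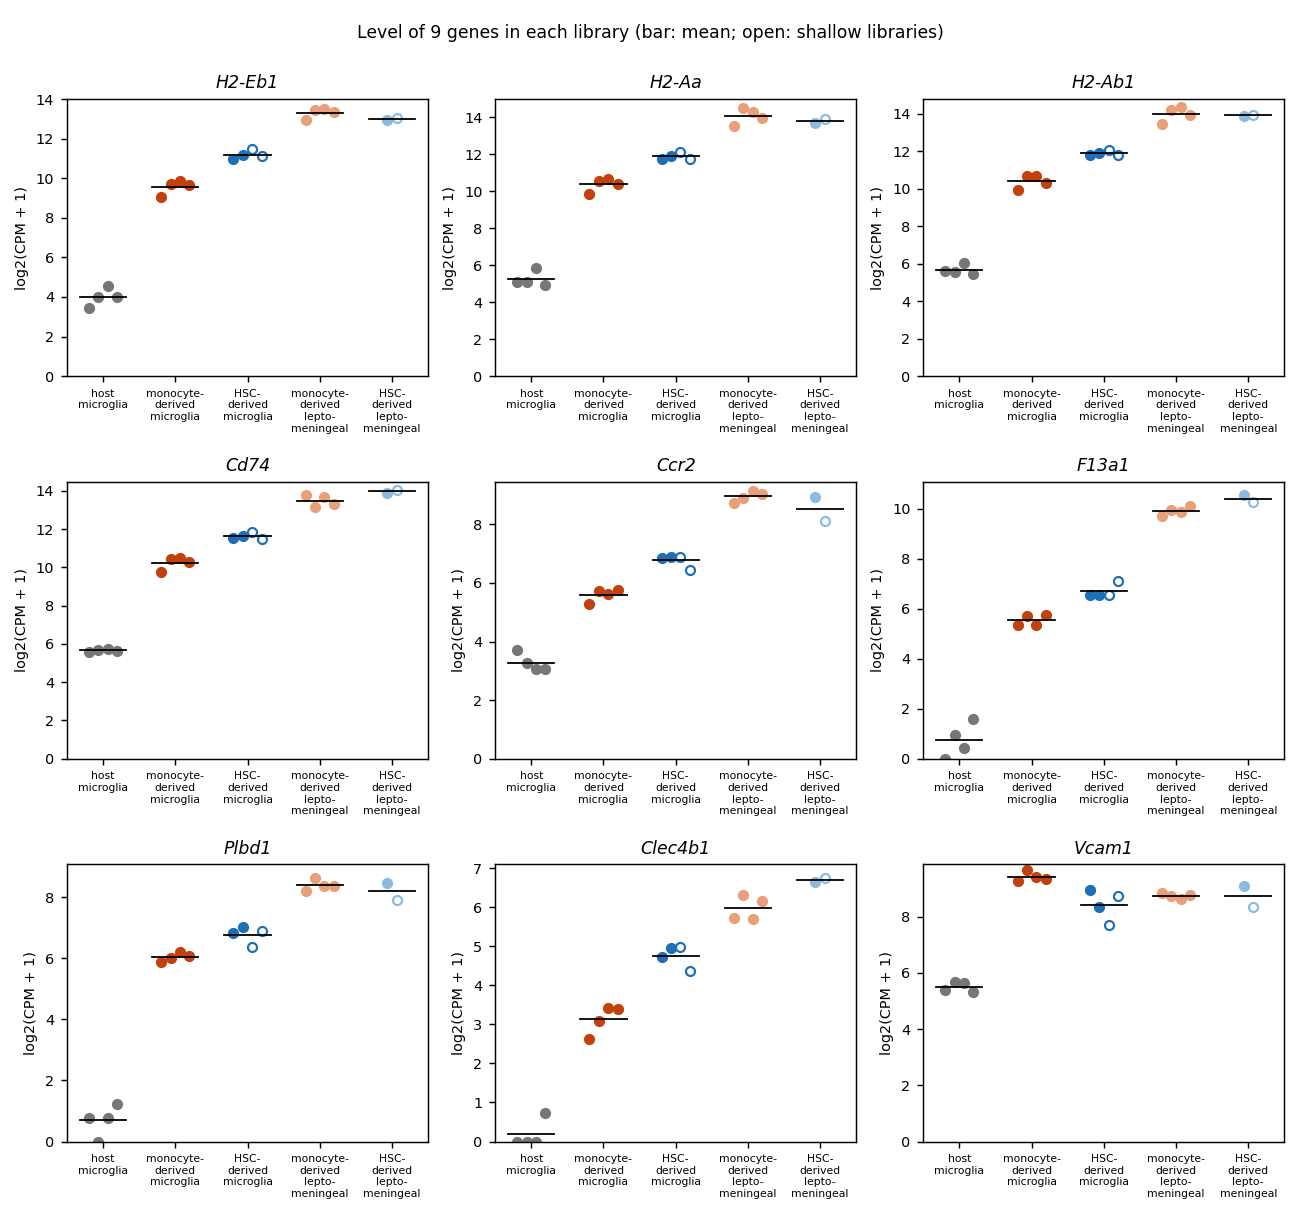
Each point is a library, plotted as log2(CPM + 1) in the 5 groups, with the group mean as a bar and the shallow libraries as open circles. For the 8 genes from H2-Eb1 to Clec4b1 the host libraries lie below, the monocyte-derived microglia next, the HSC-derived microglia above those and the leptomeningeal macrophages on top; Vcam1 was higher in monocyte-derived than in HSC-derived microglia.

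Vcam1 (chromosome 3, 116109949 to 116129688), which encodes an adhesion molecule that binds alpha-4 integrins, went the other way. It had 607, 795, 673 and 640.1 CPM in monocyte-derived and 492, 324, 205 and 423 CPM in HSC-derived libraries, without overlap. Monocyte-derived cells were 1.84-fold higher with all libraries (log2 -0.88 ± 0.18 SE for HSC-derived minus monocyte-derived, edgeR adjusted p = 0.0076). Without the shallow pair the log2 difference was -0.75 and the test was missed (adjusted p = 0.0838). When HSC-derived leptomeningeal replicate 2, another shallow library, was also left out, the same estimate passed (adjusted p = 0.00687). Itga4, the alpha-4 integrin gene, had 84.6 to 102 CPM and 56.3 to 93.5 CPM, which overlapped (edgeR adjusted p = 0.355).

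The other 12 genes higher in monocyte-derived cells with all libraries were Gdf3, Gm41750, Maml3, Pigm, Prdm9, Proser1, Ranbp10, Stambp, Stat5b, Supt20, Ube4a and Wasl. All 13 had an unadjusted edgeR p under 0.05 in the fit without the shallow pair, and 0 passed after adjustment there. Over all genes 748 of 10428 had such a p, of which 336 were higher in monocyte-derived cells. That fit reuses the other libraries on which the 13 were called, so their low p-values there were largely built in. Wasl, Stat5b, Gdf3, Maml3 and Mgst1, and Rplp1, Ccl8, Mgl2, Lgals3, Cd209a, Flt3, Clec9a, Zbtb46 and S100a9 further on, lie outside the rule for named genes and were chosen after their values were seen. Wasl, which encodes the actin regulator N-WASP, had 47.3 to 61.2 CPM in monocyte-derived and 19.6 to 26.1 CPM in HSC-derived libraries, a 2.27-fold difference (edgeR adjusted p = 0.0076, and 0.0856 without the shallow pair). Stat5b, a transcription factor gene of cytokine signalling, had 36.4 to 40.7 CPM against 10.2 to 24.1 CPM (edgeR adjusted p = 0.0171, and 0.183 without the shallow pair). Gdf3, a TGF-beta family ligand gene, had 87 to 139 CPM against 60.5 to 86.1 CPM (edgeR adjusted p = 0.0326, and 0.169 without the shallow pair). Maml3, a co-activator gene of Notch signalling, had 32 counts in all over the monocyte-derived and 0 over the HSC-derived libraries. With 3 counts over the group standing in for the 0, and the 32 taken as exact, this gives a floor of 3.57-fold, not an estimate. The 1 gene that was higher in monocyte-derived cells without the shallow pair was Mgst1, a glutathione transferase gene, at 76.1 to 96.6 CPM against 35.4 and 46.7 CPM in the deeper pair (edgeR adjusted p = 0.0249). In the shallow pair it had 61.5 and 90 CPM, which overlapped the monocyte-derived range.

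Many of the genes called with all libraries had their highest levels in the shallow pair, ribosomal protein genes above all. Of the 187 genes higher in HSC-derived cells, 166 had both shallow libraries above both deeper HSC-derived ones. The share of all tested genes with that order was not counted, so how unusual it is cannot be read from this number. Of the 187, 61 encoded ribosomal proteins and 19 encoded nuclear subunits of oxidative phosphorylation. Of the 85 ribosomal protein genes tested, 61 were higher with all libraries and 0 by edgeR without the shallow pair, where their median log2 difference was 0.44 in place of 1.05. Of the same genes, 52 had an unadjusted edgeR p under 0.05 without the shallow pair, beside 748 of 10428 over all genes. DESeq2 called 36 of them there. In edgeR fits with fewer groups and without the shallow pair, 48 (3 microglia groups) and 56 (the 6 remaining libraries of the comparison) were called. Rplp1, a ribosomal stalk protein gene, had 3726 to 4047 CPM in monocyte-derived cells, 4696 and 4744 in the deeper pair and 9915 and 8719.9 in the shallow pair. The deeper pair was thus above the monocyte-derived libraries too, by a smaller step. Among all 200 called genes, 183 could be tested without the shallow pair, and all 183 kept the direction of the difference there. That fit reuses all the other libraries on which the calls were made, so the agreement in direction was largely built in.

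Several genes of border and lipid-handling macrophages had the same pattern as the ribosomal genes. Apoe, the lipid carrier gene, had 80598 to 89626 CPM in monocyte-derived cells, 87333 and 111620 in the deeper pair and 205665 and 250903 in the shallow pair (edgeR adjusted p = 0.0307, and 0.883 without the shallow pair). Ccl8, a chemokine gene of border macrophages, had 24.7 to 30.6 CPM, then 51 and 56.3, then 251 and 231 CPM (edgeR adjusted p = 0.0424 and 0.395). Ptgds, a prostaglandin D synthase gene abundant in leptomeningeal cells, had 24.5 to 42.3 CPM, then 80.8 and 68.7, then 574 and 497 CPM (edgeR adjusted p = 0.0394 and 0.662). For all 3 the shallow pair was far above the rest. Dcn, a proteoglycan gene of fibroblasts, had 0 counts in all over the monocyte-derived and 8 over the HSC-derived libraries. With 3 counts over the group standing in for the 0, and the 8 taken as exact, this gives a floor of 7.96-fold, not an estimate.

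**Figure D3:**
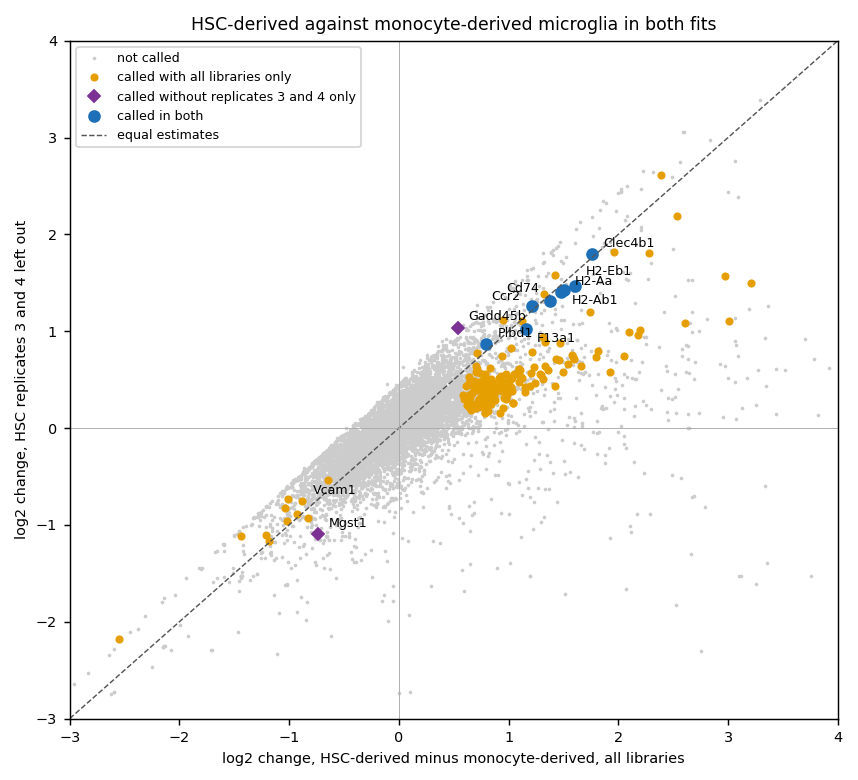
Each point is a gene, with the log2 difference (HSC-derived minus monocyte-derived) from all libraries on the horizontal axis and from the fit without HSC-derived replicates 3 and 4 on the vertical axis. Of 202 genes called in either fit, 181 are inside the axes; 4 lie outside them and 17 were not tested without the shallow pair. The 8 genes called in both fits lie near the line of equal estimates, whereas most genes called with all libraries only lie below it.

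The number of genes called without the shallow pair depended on which other libraries shared the fit. With the 16 remaining libraries it was 10 in all. It was 50 (0.459%, of which 47 were higher in HSC-derived cells) when HSC-derived leptomeningeal replicate 2 was left out as well, a setting chosen after seeing the data. Of those 50, 29 (58%) were among the 200 genes called with all libraries, or 14.5% of the 200. Those higher in HSC-derived cells were 0.431% of the genes tested. With the 10 remaining microglia libraries alone, a setting also chosen after seeing the data, 152 were called (1.54%), of which 88 were among the 200. With the 6 remaining libraries of the comparison, 201 were called, of which 103 were among the 200, and there H2-Eb1, H2-Aa, H2-Ab1 and Cd74 missed the threshold. In the fit without the 3 shallow libraries all 8 genes named above passed, with edgeR adjusted p from 9.79e-06 (Cd74) to 0.0374 (H2-Aa).

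A set of early-response and NF-kB target genes separated the deeper pair from the monocyte-derived cells, but the shallow pair lay within or below the monocyte-derived range. Gadd45b, a stress-induced gene, had 57.5 to 76.1 CPM in monocyte-derived cells, 132 and 140.2 in HSC-derived replicates 1 and 2, and 15.4 and 19.6 in replicates 3 and 4. It passed without the shallow pair (2.05-fold, edgeR adjusted p = 0.00608) but not with all libraries (adjusted p = 0.556). Tnfaip3, which encodes the NF-kB inhibitor A20, had 86.5 to 121 CPM, then 207 and 197, then 87.1 and 62.6 CPM. Atf3, a stress transcription factor gene, had 259 to 319 CPM, then 455 and 415, then 199.8 and 133 CPM. Ccl4, a chemokine gene, had 280.1 to 323 CPM, then 475 and 492, then 108 and 211 CPM. Gadd45b, the last 3 and Nfkbiz were chosen after their values were seen, because they passed when all 3 shallow libraries were left out (edgeR adjusted p from 0.000553 to 0.0166).

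Of 21 tested inflammatory cytokine and NF-kB target genes, 0 passed with all 18 libraries and 0 without the shallow pair by edgeR, with 2 and 7 at an unadjusted p under 0.05 and 0 and 2 called by DESeq2. Over all genes, 1639 of 10597 and 748 of 10428 had an unadjusted edgeR p under 0.05 in these fits. The summed level of the 21 genes was 2642 to 3158 CPM in monocyte-derived libraries, 4001 and 4205 CPM in the deeper pair and 1870.2 and 1863 CPM in the shallow pair. The 19 immediate early genes had the same order, with sums of 4311 to 5193, 6039 and 5982, and 2977 and 2845 CPM, with 0 called by edgeR in either fit, 0 and 5 at an unadjusted p under 0.05, and 0 and 2 called by DESeq2. With the 6 remaining libraries of the comparison edgeR called 6 of the first list and 9 of the second. The direction for these genes thus depended on which HSC-derived libraries were read. Actinomycin D, a transcription blocker, was used during preparation per the labels.

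**Figure D4:**
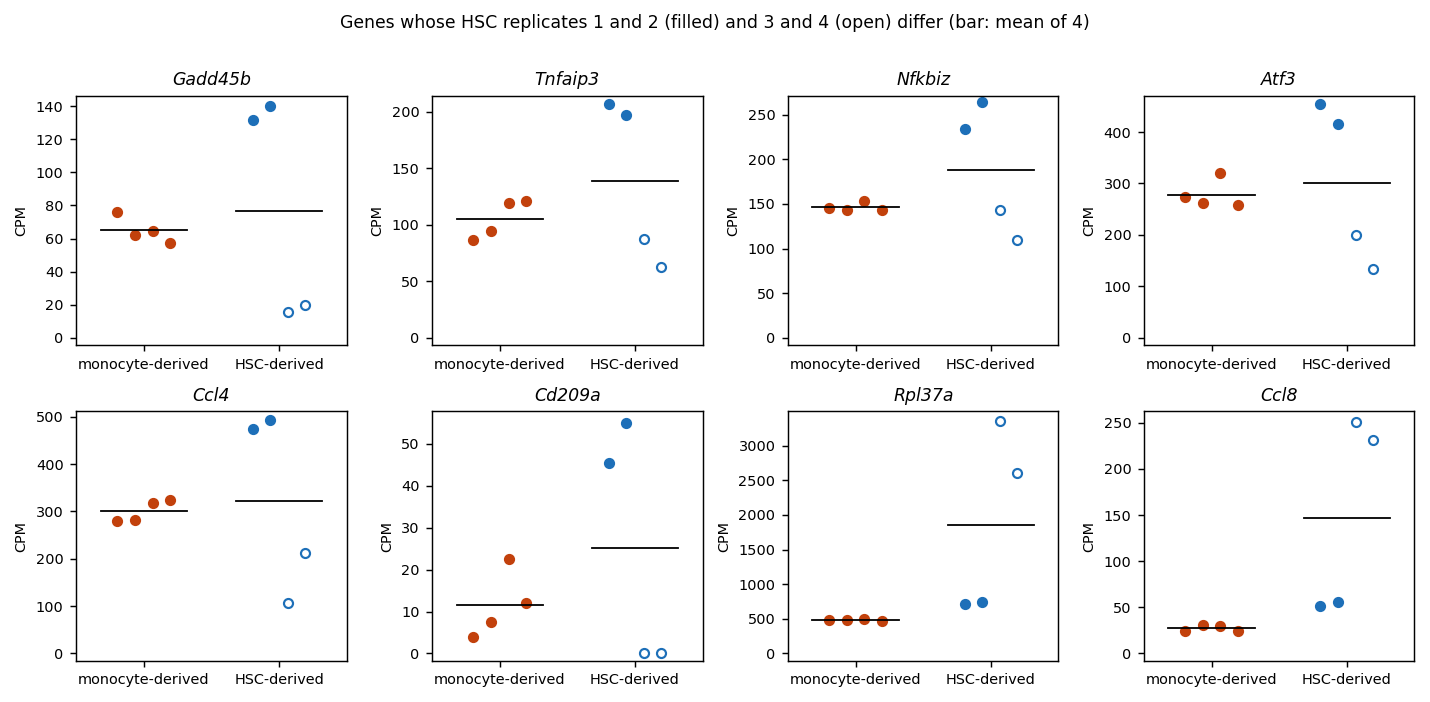
Points give CPM per library for 8 genes in monocyte-derived and HSC-derived microglia, with HSC-derived replicates 1 and 2 filled, replicates 3 and 4 open, and the mean of 4 as a bar. Gadd45b, Tnfaip3, Nfkbiz, Atf3, Ccl4 and Cd209a are high in replicates 1 and 2 and low in 3 and 4, whereas Rpl37a and Ccl8 are high in 3 and 4.

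Of 20 tested genes of marrow-derived brain macrophages, 2 were higher in HSC-derived (Plbd1 and Apoe) and 1 in monocyte-derived cells (Gdf3) with all libraries, and 1 (Plbd1) passed without the shallow pair. Over all genes these shares were 1.76%, 0.123% and, in either direction, 0.0959%. In the same fits 6 and 3 of the list had an unadjusted edgeR p under 0.05, beside 1639 of 10597 and 748 of 10428 over all genes. The list's median log2 difference (HSC-derived minus monocyte-derived) was 0.09, and -0.05 without the shallow pair, beside -0.02 and -0.01 over all genes. Ms4a7, a marker of marrow-derived brain macrophages, had 754 to 820.2 CPM in monocyte-derived and 754 to 1018 CPM in HSC-derived libraries (edgeR adjusted p = 0.705), against 6.05 ± 4.41 CPM (SD, n = 4) in host microglia. Clec12a, a lectin receptor gene of the same class, had 338 to 352 CPM against 392 to 552 CPM (edgeR adjusted p = 0.25). P2ry12, the purinergic receptor gene of microglia, had 1466 to 1729 CPM against 1049 to 1510.3 CPM, and Tmem119 had 1008 to 1096 CPM against 707 to 1098 CPM (edgeR adjusted p = 0.464 and 0.546). Sall1, a transcription factor gene of microglial identity, had 25.7 to 43.9 CPM against 3.91 to 33 CPM, far below the 326 ± 10.7 CPM of host microglia (SD, n = 4). Host microglia had 4688 ± 513 CPM of P2ry12 and 2607 ± 405 CPM of Tmem119 (SD, n = 4). Both markers were thus present in every donor-derived microglia library but below the host level, and Sall1 was low in both donor-derived groups. Leptomeningeal libraries held them too, at 239 to 626 CPM of P2ry12 and 91 to 256 CPM of Tmem119. Of the 31 homeostatic microglia genes tested, 1 (Cst3, a cystatin gene) was called with all libraries and 0 without the shallow pair by edgeR. Without that pair 2 had an unadjusted edgeR p under 0.05, beside 748 of 10428 over all genes, and DESeq2 called 0. Cx3cr1, the gene whose reporter was used for sorting, had 1668 to 1895 CPM and 1127 to 1673 CPM (edgeR adjusted p = 0.445).

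Border macrophages express MHC class II, Ccr2 and F13a1, so their marker list is given beside those genes. Of its 27 tested genes, 4 were higher in HSC-derived cells with all libraries (F13a1, Mgl2, Cbr2 and Ccl8) and 1 (F13a1) without the shallow pair. In the same fits 14 and 8 had an unadjusted edgeR p under 0.05, beside 1639 of 10597 and 748 of 10428 over all genes. DESeq2 called 7 and 4 of the list, and edgeR called 8 with the 6 remaining libraries of the comparison. The list's median log2 difference was 0.50, and 0.12 without the shallow pair, beside -0.02 and -0.01 over all genes. The summed level of the list was 5936 to 6412 CPM in monocyte-derived libraries and 6103, 5856, 5785 and 6305 CPM in HSC-derived ones, which overlapped. Mrc1, the mannose receptor gene that is a defining marker of the list, had 606, 609, 619 and 554 CPM against 660.3, 581, 538 and 646 CPM (log2 0.03 ± 0.15 SE, edgeR adjusted p = 0.969), against 1191 ± 47.9 CPM (SD, n = 4) in monocyte-derived leptomeningeal macrophages. Other members had higher means in HSC-derived cells without passing, among them the scavenger receptor gene Cd163 (16.6 against 38.4 CPM, edgeR adjusted p = 0.0849) and the lectin gene Clec10a (11.2 against 20.6 CPM, adjusted p = 0.138). Both were chosen after their values were seen. The part of border macrophages in the class II difference was not tested.

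Dendritic cells also express MHC class II and Ccr2. Of 15 tested dendritic cell genes, 0 passed in either fit by edgeR, with 8 and 6 at an unadjusted p under 0.05 and 1 called by DESeq2 in each. Over all genes, 1639 of 10597 and 748 of 10428 had an unadjusted edgeR p under 0.05. The dendritic cell list's median log2 difference was 0.43, and 0.67 without the shallow pair, beside -0.02 and -0.01 over all genes. Their summed level was 508 to 545 CPM in monocyte-derived libraries, and 611, 614, 415 and 583 CPM in HSC-derived ones, beside 491 to 524 CPM in host microglia. Among its defining markers, Flt3 had 3.31 to 7.71 CPM against 9.92, 22, 0 and 3.91 CPM, Clec9a had 0.576 to 2.48 against 4.25, 8.25, 15.4 and 3.91 CPM, and Zbtb46 had 1.4 to 5.59 against 2.83, 8.25, 0 and 3.91 CPM. Cd209a, a lectin gene of monocyte-derived dendritic cells, had 4.03 to 22.4 CPM against 45.3, 55, 0 and 0 CPM. The part of dendritic cells in the class II difference was not tested.

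Other cell types were read in the same way. T and NK cell genes summed to 247 to 302 CPM in monocyte-derived libraries and to 194, 360.1, 20.5 and 129 CPM in HSC-derived ones. Of 21 tested, 0 were called by edgeR or DESeq2 in either fit. In each fit 3 had an unadjusted edgeR p under 0.05, beside 1639 of 10597 and 748 of 10428 over all genes. Erythroid genes summed to 6.34 to 519.9 CPM in monocyte-derived libraries, to 942 CPM in HSC-derived replicate 1 and to between 43.1 and 53.6 CPM in the other 3. Choroid plexus genes summed to 6.31 to 161 CPM against 482, 13.7, 30.7 and 301 CPM. Oligodendrocyte, astrocyte and neuron genes were higher in the shallow pair, at 277 and 329, 179 and 78.3, and 174 and 54.8 CPM, against at most 114, 37.5 and 31.9 CPM in the other 6 libraries. Neutrophil gene S100a9 had 84 counts over the monocyte-derived and 0 over the HSC-derived libraries. With 3 counts over the group standing in for the 0, and the 84 taken as exact, S100a9 had a floor of 9.38-fold, not an estimate, in monocyte-derived over HSC-derived cells. It did not pass by edgeR (adjusted p = 0.312), whereas DESeq2 called it with all libraries and without the shallow pair. The part of these cells in the results was not tested.

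**Figure D5:**
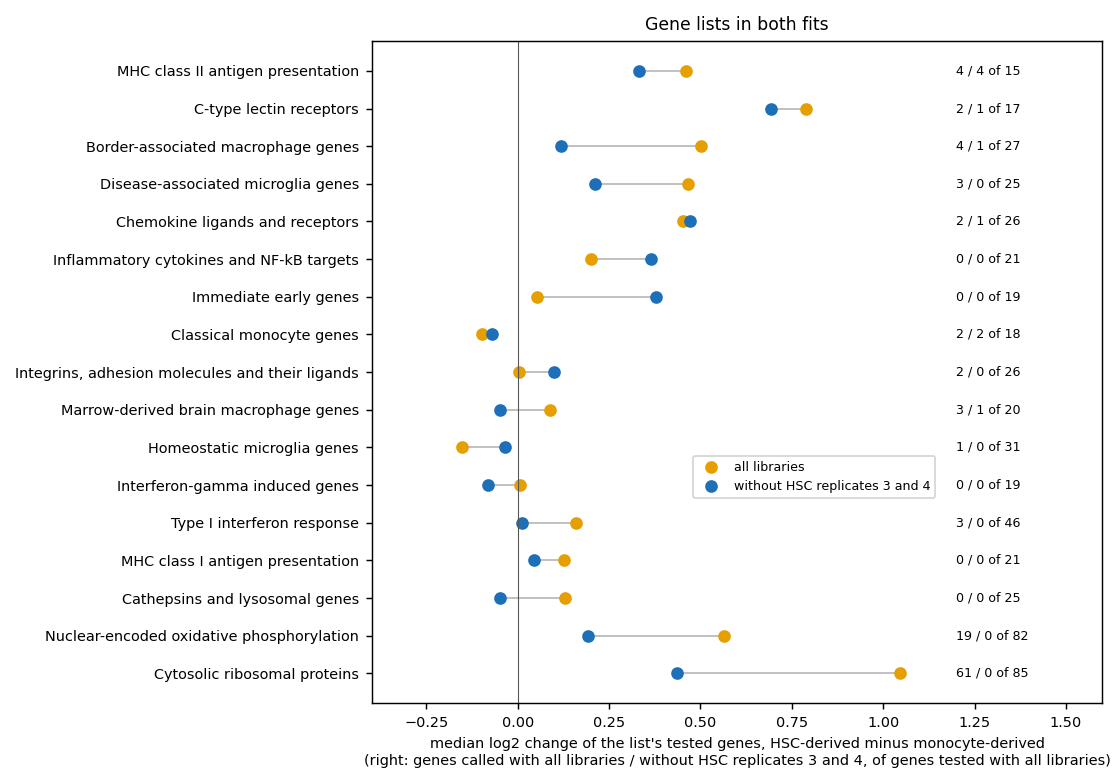
For 17 gene lists the points give the median log2 difference (HSC-derived minus monocyte-derived) with all libraries (orange) and without HSC-derived replicates 3 and 4 (blue), and the text at the right gives how many genes were called in each. MHC class II kept 4 called genes in both fits, whereas ribosomal proteins went from 61 to 0 and oxidative phosphorylation from 19 to 0.

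Compared with the other groups, both donor-derived microglia lay between host microglia and leptomeningeal macrophages for all 8 genes. Host microglia had 15.5 ± 4.99 CPM of H2-Eb1 and 8.89 ± 2.27 CPM of Ccr2 (SD, n = 4). Monocyte-derived leptomeningeal macrophages had 10219 ± 1737 CPM of H2-Eb1 and 499 ± 61.2 CPM of Ccr2 (SD, n = 4), and the 2 HSC-derived leptomeningeal libraries had 7959.9 and 8442 CPM of H2-Eb1 and 277 and 486 CPM of Ccr2. For each of the 8 genes every host library lay below, and every leptomeningeal library above, all 8 donor-derived microglia libraries. The share of all tested genes with this order was not counted, so it cannot be read as particular to the 8 genes.

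Between leptomeningeal macrophages of both origins 32 genes passed (0.302%), and none of the 8 was among them. That contrast has 2 HSC-derived libraries, of which replicate 2 held 154727 UMIs, so a gene that did not pass may still differ. There H2-Eb1 had a log2 difference of 0.32 ± 0.24 (SE, monocyte-derived minus HSC-derived, edgeR adjusted p = 0.658) and Ccr2 one of 0.30 ± 0.19 (adjusted p = 0.59). H2-Aa (0.31 ± 0.26), H2-Ab1 (0.12 ± 0.24) and Plbd1 (0.12 ± 0.19) had the same sign. Cd74 (-0.48 ± 0.22), F13a1 (-0.51 ± 0.19) and Clec4b1 (-0.71 ± 0.26) kept the direction seen in microglia. Whether the contrast differed between compartments was tested as an interaction, the microglial minus the leptomeningeal log2 difference. It passed for 6 of 10597 genes (0.0566%), of which H2-Eb1 (-1.92 ± 0.32 SE, edgeR adjusted p = 0.0079), Ccr2 (-1.51 ± 0.27, adjusted p = 0.0163), H2-Aa (-1.81 ± 0.35, adjusted p = 0.0308) and H2-Ab1 (-1.59 ± 0.32, adjusted p = 0.0367) belong to the 8 genes. The other 2 were Gngt2 and Lgals3, chosen here after their values were seen. For Cd74 the interaction was -0.90 ± 0.29 and did not pass (edgeR adjusted p = 0.387).

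Without the 3 shallow libraries, which leaves 1 HSC-derived leptomeningeal library that is assumed to vary like the others, the interaction passed for 6 of 10902 genes (0.055%). H2-Eb1 and Ccr2 passed there (edgeR adjusted p = 0.027 for each), whereas H2-Aa (adjusted p = 0.275) and H2-Ab1 (adjusted p = 0.204) did not. Leaving out monocyte-derived microglia replicate 1 removed the calls of Ccr2, H2-Aa and H2-Ab1 and kept that of H2-Eb1. The call of H2-Aa was also lost without monocyte-derived replicate 2 or 4, and that of H2-Ab1 without replicate 2, 3 or 4 or HSC-derived replicate 4.

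Lgals3, which encodes the carbohydrate-binding protein galectin-3, had 35.2, 57.9, 66.6 and 51.1 CPM in monocyte-derived and 118, 109.9, 164 and 74.4 CPM in HSC-derived microglia. The groups did not overlap, and the 2.18-fold difference passed with all libraries (edgeR adjusted p = 0.00702) but not without the shallow pair (2.15-fold, adjusted p = 0.0851). Mgl2, a C-type lectin gene, had 5.19, 19.9, 14 and 14.4 CPM against 38.3, 53.6, 41 and 74.4 CPM (edgeR adjusted p = 0.0163, and 0.414 without the shallow pair). Without the 3 shallow libraries Lgals3 passed (adjusted p = 0.00282) and Mgl2 did not (adjusted p = 0.254).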

How the data were processed

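The authors deposited a table of UMI counts per gene from bulk MARS-seq, a 3' method, for sorted cells (100000 or fewer per library, per the labels). The genome build is mm10 per the submitters' processing notes; no source used here names the aligner or counter. Of 20 libraries, 2 matched no described sample and were not used; of 13043 genes, filterByExpr kept 10597. Counts were fitted in edgeR 4.0.16 (R 4.3.3, limma 3.58.1) with TMM scaling and a robust quasi-likelihood model over 18 libraries, 1 coefficient per group, two-sided tests and Benjamini-Hochberg adjustment at 0.05; the script was tested on simulated data. The alternatives were another normalization or filter, DESeq2 1.42.0, voom, thinning, blocks and left-out libraries. Totals ran from 264795 to 1507199 in the 8 libraries compared. Floors cover only the counting error of the 0 counts, and take the counts of the higher group as exact.

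Named were the 10 genes with the largest changes in each direction called in both fits with at least 50 CPM and no overlap, up to 3 members per list called in both fits, a fixed set, all MHC class II genes, and 5 genes that rested on the shallow libraries. The comparison, lists and rule were chosen with earlier results of these data known. Same-numbered libraries did not deviate together (r -0.01 to 0.03), so numbers were not taken as pairs. Positions are from GENCODE vM21 and promoters from RefSeq.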

Additional observations from a re-analysis of the deposited data

Results flagged for a closer look

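With all 18 libraries, the contrast between both origins differed between microglia and leptomeningeal macrophages in 6 genes by the interaction test (log2 microglia minus leptomeninges, monocyte-derived minus HSC-derived). The values were -1.92 for H2-Eb1, -1.81 for H2-Aa, -1.59 for H2-Ab1, -1.51 for Ccr2, -1.67 for Lgals3 and -1.53 for Gngt2, a G protein gamma subunit gene. Without the 3 shallow libraries they were -1.83, -1.83, -1.56, -1.31, -1.33 and -1.22 in the same order. That setting leaves 1 HSC-derived leptomeningeal library, so the spread of that group cannot be seen there.

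In 9 of 125 groups of 4 libraries screened (65 genes), 1 library stood far from the others. Chance gives this in about 1 of 20 groups, here 6.25, so the count is near that of chance. In HSC-derived microglia, Ccr2 was 86.1 CPM in replicate 4 against 113 to 118 in the others, and F13a1 was 137 CPM in replicate 4 against 92.2 to 93.5. H2-DMa was 1199 CPM in replicate 3 against 888 to 936, and H2-DMb1 was 239 CPM in replicate 1 against 272 to 278. In monocyte-derived microglia, Cx3cr1 was 1895 CPM in replicate 4 against 1668 to 1691, and Stat5b was 40.7 CPM in replicate 4 against 36.4 to 36.9. Itgax, an integrin gene, was 19.6 CPM in replicate 3 against 16.6 to 16.8. H2-DMb2 was 18.2 CPM in replicate 2 against 24.5 to 24.8, and Chil3, a chitinase-like gene of monocytes, was 3.31 CPM in replicate 2 against 0.576 to 0.798.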

How the results depend on the processing

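The count of genes higher in HSC-derived cells (187) was 9 without HSC-derived replicates 3 and 4, 47 without the 3 shallow libraries, 19 with the 8 libraries alone, 511 by the DESeq2 Wald test, 85 by limma voom and 4 against a 1.5-fold change. The count higher in monocyte-derived cells (13) was 1, 3, 1, 24, 3 and 0 in those settings. The count called in both fits (8) was 16 with the 8 libraries alone, 62 by DESeq2, 36 by voom, 5 after thinning to the shallowest library and 2 against a 1.5-fold change (Cd74 and H2-Eb1). Ribosomal protein genes called (61) were 0 without replicates 3 and 4, 13 without the 3 shallow libraries, 4 with the 8 libraries alone, 32 by voom and 0 against a 1.5-fold change. Of the 8 genes called in both fits, 4 were among the 16 found with the 8 libraries alone. The named genes with an interaction (4) were 2 without the 3 shallow libraries. The cause of these changes was not tested.

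With the replicate number as a block, the 8 libraries gave 39 higher in HSC-derived and 0 in monocyte-derived cells, 34 called in both fits and 15 ribosomal genes; all 18 libraries gave 20 called in both fits. Same-numbered libraries did not correlate, so this block is no pairing.

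Leaving out 1 library at a time gave 28 to 478 genes higher in HSC-derived and 3 to 77 higher in monocyte-derived cells, 2 to 9 called in both fits, 15 to 75 ribosomal genes, 4 to 5 MHC class II genes and 1 to 4 named genes with an interaction. The highest counts came without HSC-derived replicate 1 (478) or 2 (473), and the lowest without replicate 3 (30) or 4 (28). Without monocyte-derived replicates 1 to 4 the counts were 46, 78, 94 and 63. The count in both fits was 5 without monocyte-derived replicate 1 or HSC-derived replicate 1, and 2 (Cd74 and H2-Eb1) without HSC-derived replicate 2. Over 24 alternatives, Cd74, Ccr2, F13a1, H2-Aa, H2-Ab1 and H2-Eb1 were each called in 23, Clec4b1 in 22 and Plbd1 in 20, with the same direction in all. The 4 class II genes were missed with the 6 deeper libraries alone (adjusted p 0.0926 to 0.119). Depth limits genes under 15.4 CPM, where the shallow pair held 3 counts or fewer.

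Estimates near 0 changed sign in 7 named genes that did not pass in the settings concerned (log2, monocyte-derived minus HSC-derived). Without HSC-derived replicates 3 and 4, without the 3 shallow libraries, with 10 libraries and with 6, they were 0.0546, 0.0499, 0.0475 and 0.0475 for Ms4a7, 0.0307, 0.0257, 0.0245 and 0.0251 for H2-DMb2, -0.137, -0.143, -0.148 and -0.148 for Rfx5, and -0.164, -0.169, -0.172 and -0.172 for Rfxank. By voom, Rfx5 was -0.0888 and Rfxank -0.0404. Without a filter on low counts, Mrc1 was 0.00445 and H2-Ob 0.0218. H2-Ob was 0.00621 and 0.0085 with the replicate block in 18 and 8 libraries, 0.0129 with upper quartile scaling and 0.00755 after thinning. Leaving out 1 library at a time, the ranges were -0.0658 to 0.0205 for Mrc1, -0.147 to 0.00314 for H2-DMb2, -0.0625 to 0.161 for H2-Ob, -0.148 to 0.284 for Rfx5, -0.161 to 0.188 for Rfxap and -0.0712 to 0.286 for Rfxank. The cause was not tested.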
